A study of Mus musculus with 20 samples.

Results

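Knockdown of Mbd3 in M3 cells that received no drug was examined, as 2 libraries of cells with an shRNA against Mbd3 (shMbd3) against 2 libraries of cells with a control shRNA (shControl). These are 4 of the 20 RNA-sequencing libraries of the study, and 12808 of 24454 genes were tested. M3 is a single stable mesenchymal clone derived from Py2T, a mouse breast cancer line of the MMTV-PyMT model, in which the mammary tumour virus promoter drives the polyoma middle T oncogene. All 4 libraries come from this 1 clone, carry an shRNA and received no CI994. They were prepared from total RNA of 2 independent experiments per the labels, in serum-containing medium, and the labels give neither the number nor the sequences of the hairpins. For comparison the text uses M3 cells with an shRNA against Tet2 (shTet2, no drug), and shControl and shMbd3 cells treated for 72 hours with CI994 at 2 µM, a benzamide that inhibits class I HDACs (histone deacetylases), each in 2 libraries. Vim was abundant and Cdh1 low in the shControl libraries, as the mesenchymal label says, while the keratins Krt8 and Krt18 were also present (values below).

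MBD3 is a core subunit of the nucleosome remodelling and deacetylase (NuRD) complex, which joins the ATP-dependent remodeller CHD4 to the deacetylases HDAC1 and HDAC2 and lowers transcription at many enhancers and promoters. Its close relative MBD2 occupies the same place in separate NuRD complexes and, unlike MBD3, binds methylated DNA strongly. In carcinoma cells the epithelial-mesenchymal transition is the loss of E-cadherin and cell junctions and the gain of a motile, vimentin-rich state, driven by repressors of the ZEB, SNAIL and TWIST families.

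Mbd3 itself (chr10:80392539-80399531, GRCm38, RefSeq) was at 22.1 and 27.7 reads per 1000000 mapped to genes (CPM) in the shMbd3 libraries, and at 5.40 and 66.5 CPM in the shControl libraries labelled replicate 1 and 2. The shTet2 libraries held 56.9 and 66.3 CPM, shControl with CI994 53.6 and 67.7 CPM, and shMbd3 with CI994 16.6 and 21.9 CPM. The untreated shMbd3 libraries lay below 5 of these 6 libraries without the Mbd3 shRNA, and above the library labelled shControl replicate 1, which for this gene goes against its label. Results below therefore come from a fit of all 12 M3 shRNA libraries (the 12-library fit) and from a fit without that control library (the 11-library fit). At some genes with large changes that library lay near shControl replicate 2. Cdh1 was at 16.3 and 25.7 CPM in the 2 (169.7 and 202.2 CPM in shMbd3) and Vim at 1461 and 1525 CPM (395.6 and 408.9 CPM). At others, such as Krt8 (323.6 and 1022 CPM), the 2 differed. The cause was not tested. Mbd3 changed by 0.29 ± 0.81 on the log2 scale (± is the standard error) in the 12-library fit (adjusted p = 0.798; limma, Benjamini-Hochberg). In the 11-library fit its change was -1.41. That fit keeps 1 shControl library, after the other was left out with its low Mbd3 level known. The sign for this gene therefore follows from that choice and does not test the knockdown. All log2 changes are of CPM + 0.5, positive where shMbd3 was higher, and genes near 0 are compressed on that scale.

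The 4 libraries held 20869867 to 23957128 reads. The library labelled shControl replicate 1 differed from replicate 2 along transcript GC content. Genes were split by GC into 10 bins of equal size. From the lowest to the highest bin the median log2 difference between replicates fell from 0.63 to -1.14, a change of -1.77, against -0.39 to 0.01 in the 5 other replicate pairs. The Mbd3 transcript has 62.9% GC, in the highest bin. Its difference of -3.39 was lower than the median of -1.14 there. Of the 1225 genes of that bin 1, Mbd3 itself, was that low, and over all tested genes 3 were, Mbd3 included. Between the replicates of shMbd3 the same change was -0.12. With all libraries, 2.04% of genes in the lowest bin passed as higher in shMbd3 and 35.5% as lower; in the highest bin it was 24.7% and 2.61%. Without the control library the corresponding shares were 6.53% and 25.6%, and 19.8% and 9.96%.

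**Figure D1:**
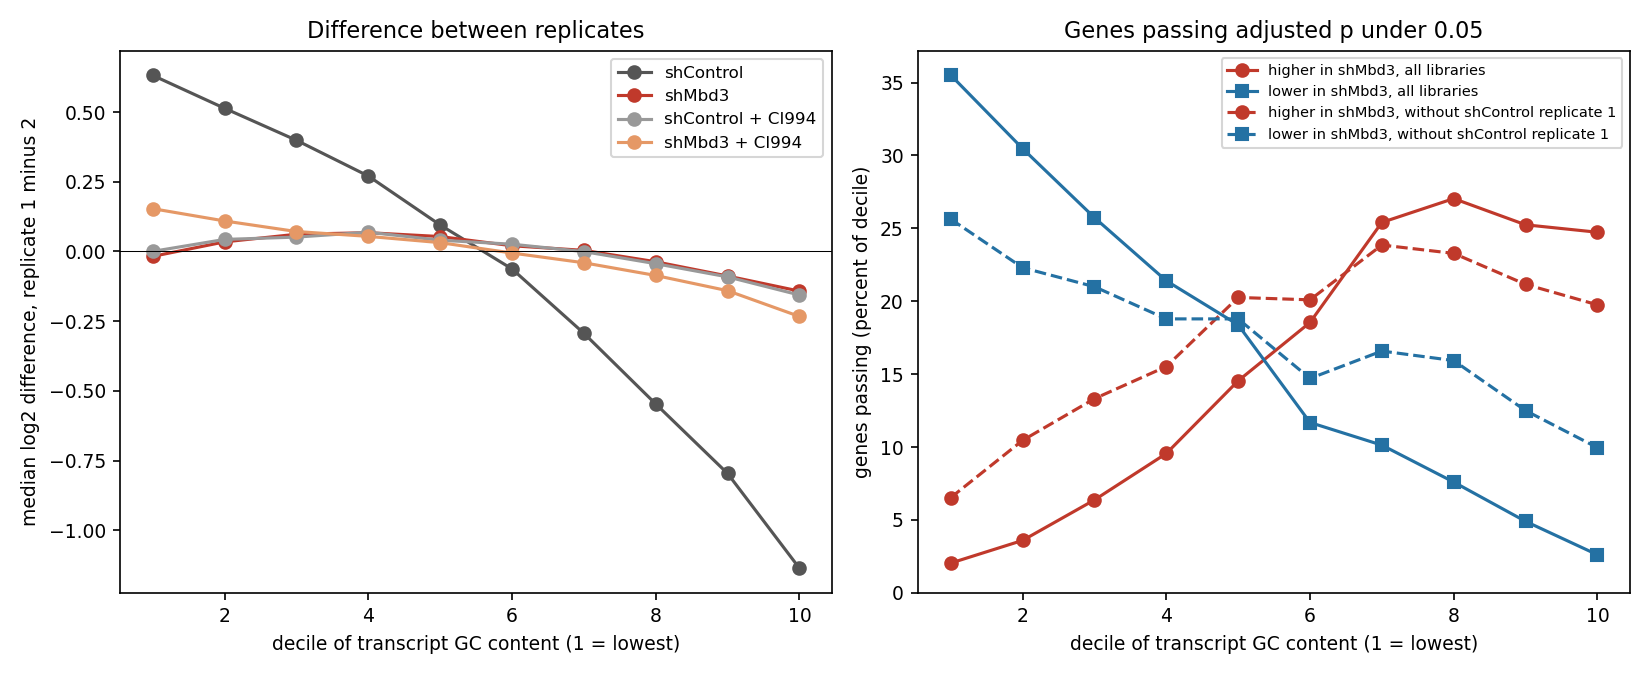
Left, the median log2 difference between replicate 1 and replicate 2 in each of 10 equal bins of genes by transcript GC content, for 4 groups; right, the percent of genes in each bin that passed as higher or lower in shMbd3 with all libraries (solid) and without shControl replicate 1 (dashed). The shControl pair falls from 0.63 to -1.14 while the shMbd3 pair stays near 0, and the dashed lines are flatter than the solid ones.

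In the 12-library fit 4122 genes passed at an adjusted p under 0.05 (32.2% of those tested), 1960 higher in shMbd3 (15.3%) and 2162 lower (16.9%). In the 11-library fit 4402 passed (34.4%), 2169 higher and 2233 lower. With the same sign in both fits, 1652 genes rose (12.9%) and 1727 fell (13.5%), and these 3379 (26.4%) are what "rose" and "fell" mean below. No gene passed both fits with opposite signs, 743 passed only with the control library and 1023 only without it. By the smaller change of the 2 fits, 337 rose and 548 fell by more than 1 log2 unit, and 67 rose and 137 fell by more than 2. The median change over all tested genes was 0.00 in both fits. A fit of these 4 libraries alone called 304 genes (106 higher, 198 lower), leaving out either shMbd3 library in turn left 1590 and 1786, and leaving out shControl replicate 2 in place of replicate 1 gave 8733. With 2 libraries a group, CPM ranges did not overlap between shControl and shMbd3 for 62.8% of tested genes, so such separation alone says little.

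**Figure D2:**
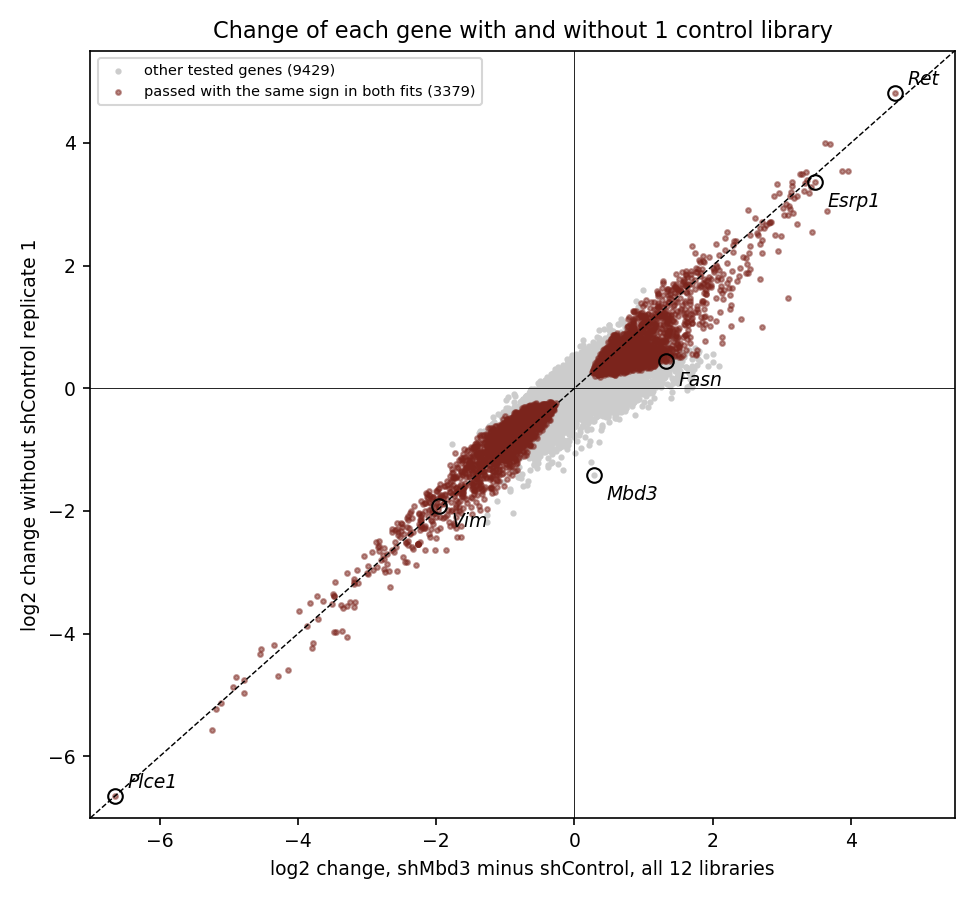
Each point is a tested gene, with its log2 change (shMbd3 minus shControl) from the 12-library fit on the x axis and from the fit without shControl replicate 1 on the y axis; dark points are the 3379 genes that passed with the same sign in both. Large changes such as Ret, Esrp1, Vim and Plce1 lie near the dashed line of equality, Fasn moves from 1.32 to 0.44, and Mbd3 from 0.29 to -1.41.

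The list most often higher in shMbd3 was the epithelial one. Of its 41 tested members (of 47), 28 rose and 1 fell in both fits, against 12.9% and 13.5% of all genes (13 rose in the fit of 4 libraries alone, 25 without either shMbd3 library, and 31 with each library's GC trend removed), and the median change was 1.87 (1.53 in the 11-library fit) against 0.00. The list was compiled with earlier results of these data known, so its direction is not independent evidence. The same shares of all genes, 12.9% higher and 13.5% lower, are the background for every list count below. The upstream DNA of its most changed members is shown first because it holds short letter runs known as binding sites of ZEB and SNAIL repressors. These are the 250 bases before the RefSeq start (first-listed start, build GRCm38.p6) of the 5 risen members with the largest change among the 16 that have an entry, 5′ to 3′ on the gene's strand. Capitals mark CAGGTG or its reverse complement CACCTG, the E-box searched for.

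Rab25, chr3:88548280-88548529, minus strand: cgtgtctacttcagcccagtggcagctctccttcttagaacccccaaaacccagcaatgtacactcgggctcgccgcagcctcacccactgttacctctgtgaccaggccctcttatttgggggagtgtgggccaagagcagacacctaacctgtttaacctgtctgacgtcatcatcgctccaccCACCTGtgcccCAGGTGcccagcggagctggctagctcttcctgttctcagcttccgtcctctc

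Cldn4, chr5:134946935-134947184, minus strand: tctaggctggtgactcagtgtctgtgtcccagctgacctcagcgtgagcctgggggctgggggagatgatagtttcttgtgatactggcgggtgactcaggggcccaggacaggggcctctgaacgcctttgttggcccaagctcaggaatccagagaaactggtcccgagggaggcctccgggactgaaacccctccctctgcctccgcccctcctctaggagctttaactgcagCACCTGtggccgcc

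Lsr, chr7:30973470-30973719, minus strand: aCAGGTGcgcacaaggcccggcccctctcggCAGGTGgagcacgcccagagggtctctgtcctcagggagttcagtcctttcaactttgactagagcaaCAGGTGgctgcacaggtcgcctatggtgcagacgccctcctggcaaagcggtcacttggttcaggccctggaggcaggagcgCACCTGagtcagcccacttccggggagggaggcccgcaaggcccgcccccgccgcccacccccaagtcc

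Epcam, chr17:87635729-87635978, plus strand: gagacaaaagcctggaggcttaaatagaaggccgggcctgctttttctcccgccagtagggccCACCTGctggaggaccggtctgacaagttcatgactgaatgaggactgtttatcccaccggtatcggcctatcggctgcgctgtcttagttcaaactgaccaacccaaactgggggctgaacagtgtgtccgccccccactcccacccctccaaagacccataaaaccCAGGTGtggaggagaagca

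Marveld2, chr13:100616972-100617221, minus strand: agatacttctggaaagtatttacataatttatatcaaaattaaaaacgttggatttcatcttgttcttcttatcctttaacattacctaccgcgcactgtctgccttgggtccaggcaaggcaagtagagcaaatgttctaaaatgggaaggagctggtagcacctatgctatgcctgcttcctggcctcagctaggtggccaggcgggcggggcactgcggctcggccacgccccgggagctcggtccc

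Rab25, Epcam and Cldn4 carry 2, 2 and 1 such E-boxes, Lsr carries 4, and Marveld2 has none in this window. Over the 16 risen epithelial members with an entry, 9 windows (56.2%) hold at least 1. The 9 windows of epithelial members that did not rise hold one in 5 (55.6%). The share was 14.7% over the 10087 tested genes with an entry, 20.2% over all genes that rose, 12.5% over all that fell, and 0 of 19 over the mesenchymal list. Risen and other epithelial members thus held it at nearly the same share, and a run of letters is not an occupied site.

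Adhesion and junction molecules were among the members that rose. Cdh1, E-cadherin (chr8:106603350-106670247), was at 16.3 and 25.7 CPM in shControl and at 169.7 and 202.2 CPM in shMbd3. Its log2 change was 3.08 ± 0.16 (adjusted p = 5.7e-06), and 2.82 in the 11-library fit. Epcam, an epithelial adhesion molecule, was at 36.7 and 41.9 CPM in shControl and 228 and 252 CPM in shMbd3, a change of 2.53 ± 0.11 (adjusted p = 1.7e-06; 2.50 without the control library). Both shMbd3 libraries lay far above both control libraries for each of these genes, and the replicates differed by less than the groups.

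The tight junction claudin Cldn4 rose from 4.12 and 13.8 CPM to 94.9 and 117 CPM, and Cldn7 from 3.02 and 7.19 CPM to 32.0 and 38.1 CPM. Lsr, the angulin of tricellular junctions, was at 4.62 and 18.7 CPM in shControl and at 105 and 118 CPM in shMbd3. For these 3 genes the library labelled shControl replicate 1 was the lower control, and the log2 changes of 3.65, 2.71 and 3.44 were 2.89, 2.20 and 2.54 without it. Cldn3 shows the most extreme case: 0.595 and 10.5 CPM in shControl, 26.4 and 33.6 CPM in shMbd3, and a change of 3.09 that was 1.47 without that library. The desmosomal cadherin Dsg2 was at 0.412 and 0.192 CPM in shControl and 7.60 and 7.09 CPM in shMbd3 (log2 change 3.26, and 3.49 without the control library), and desmoplakin, Dsp, at 59.2 and 77.0 CPM and 227 and 247 CPM (1.74 and 1.61).

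The 28 risen members also include regulators of splicing and transcription, a GTPase and a protease. Esrp1, which sets epithelial splicing, was at 13.6 and 17.3 CPM in shControl and 182 and 185 CPM in shMbd3, a change of 3.48 ± 0.13 (adjusted p = 9.7e-07; 3.37 in the 11-library fit). Rab25, a recycling GTPase of epithelia, went from 0.549 and 0.719 CPM to 9.35 and 10.7 CPM, and the transcription factor Grhl2 from 18.1 and 18.0 CPM to 51.8 and 57.2 CPM. The serine protease St14 (matriptase) was at 4.39 and 10.8 CPM in shControl and 69.0 and 74.6 CPM in shMbd3.

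Not all epithelial genes moved that way. The 1 member that fell was Ppl, periplakin, from 68.2 and 95.8 CPM to 33.1 and 41.1 CPM (log2 change -1.18 ± 0.15, adjusted p = 7.1e-04; -1.37 in the 11-library fit). The keratins of simple epithelia, chosen for mention after their values were seen, did not rise. Krt8 was at 323.6 and 1022 CPM in shControl and 691.5 and 690.5 CPM in shMbd3, and Krt18 at 581 and 1373 CPM and 1271 and 1280 CPM. In both genes the shMbd3 libraries lay between the 2 control libraries, and the sign of the Krt8 change turned from 0.20 to -0.57 (adjusted p = 5.5e-04) without the library labelled shControl replicate 1.

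**Figure D3:**
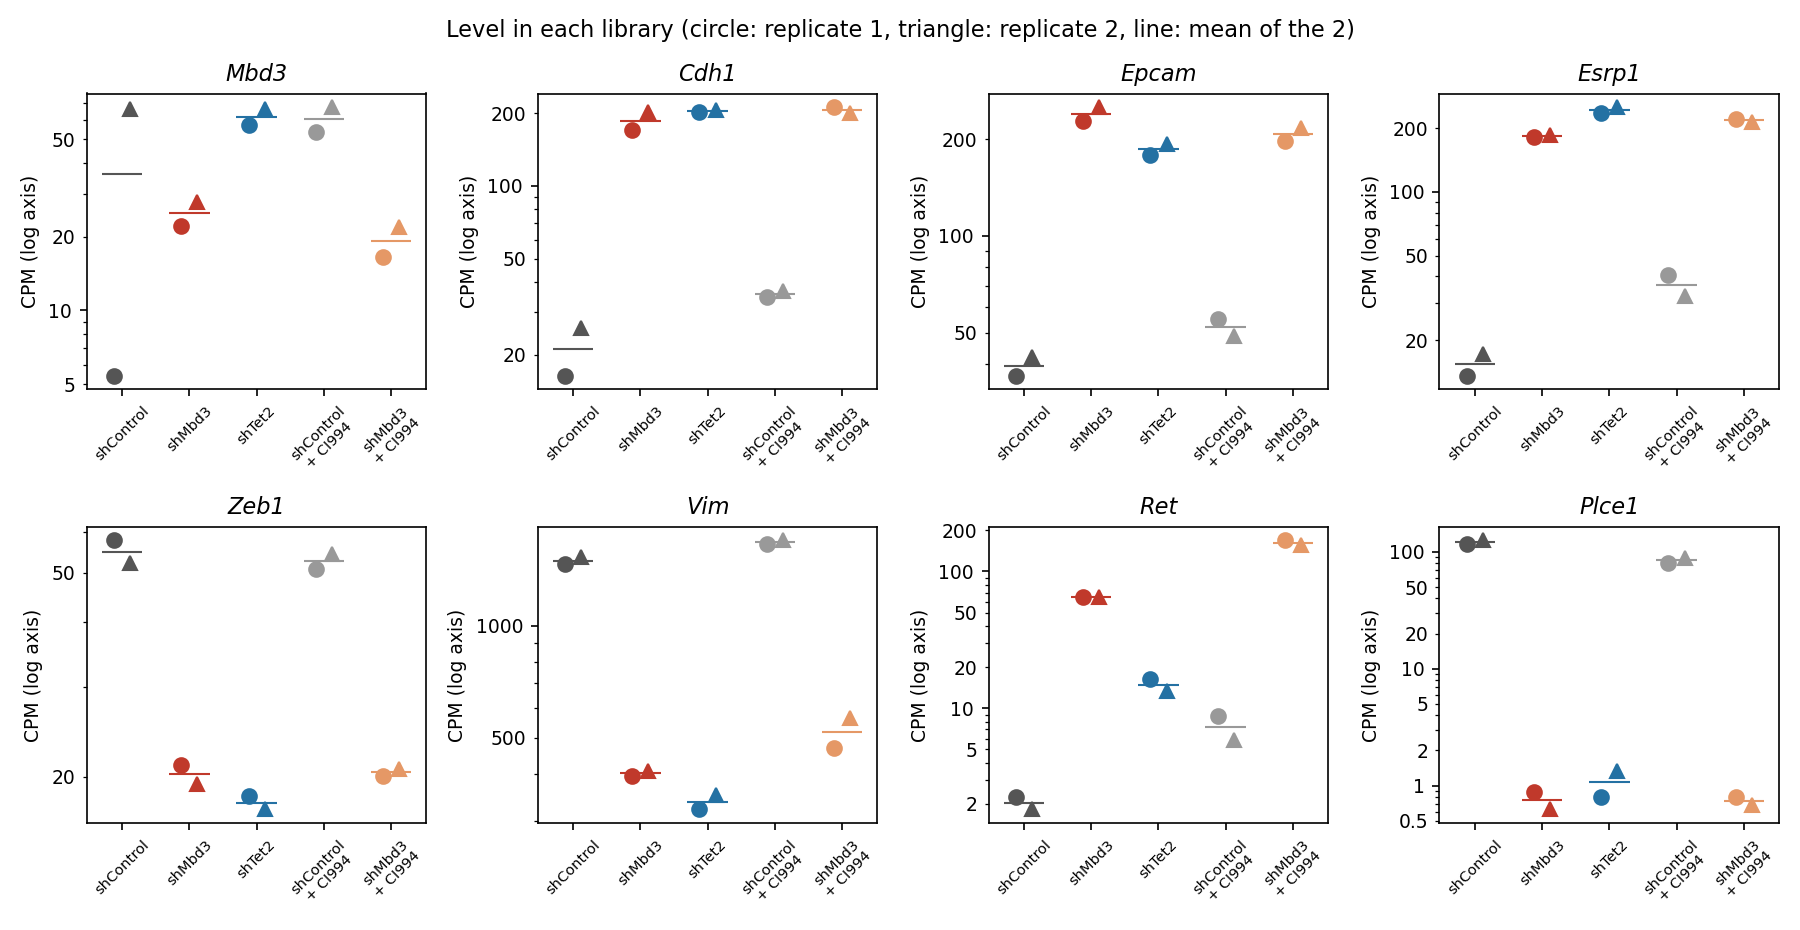
CPM of 8 genes on log axes in each library of 5 groups (circle, replicate 1; triangle, replicate 2; line, mean of the 2). Cdh1, Epcam, Esrp1 and Ret are higher and Zeb1, Vim and Plce1 lower in both shMbd3 libraries than in both shControl libraries, while the Mbd3 control values of 5.40 and 66.5 CPM lie on either side of the shMbd3 values.

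Transcription factors of the transition mostly fell or did not pass: of 22 tested members 1 rose and 9 fell in both fits, with a median of -0.26 (-0.32 in the 11-library fit). Of the falls, 2 passed in the fit of the 4 libraries alone, and 4 and 6 without each shMbd3 library. Zeb1, a repressor of E-cadherin, was at 57.8 and 52.1 CPM in shControl and 21.1 and 19.4 CPM in shMbd3, a log2 change of -1.48 ± 0.13 (adjusted p = 8.0e-05; -1.35 in the 11-library fit). Prrx1 went from 234 and 168 CPM to 59.8 and 61.6 CPM, and Mef2c from 15.6 and 14.9 CPM to 3.84 and 5.84 CPM. Twist2 was at 1.01 and 1.68 CPM in shControl and had no read in either shMbd3 library.

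Twist1 also fell, and Zeb2 and the SNAIL family did not pass. Twist1 fell by 0.68 on the log2 scale (adjusted p = 0.014; -0.42 in the 11-library fit), from 37.6 and 28.6 CPM to 20.7 and 21.9 CPM. Zeb2 was at 61.5 and 47.2 CPM in shControl and 46.8 and 48.4 CPM in shMbd3, Snai1 at 1.69 and 5.08 CPM and 4.17 and 5.13 CPM, and Snai2 at 5.67 and 4.46 CPM and 6.64 and 5.89 CPM. None of these 3 passed in either fit, and the sign for Zeb2 and Snai1 depended on the library labelled shControl replicate 1. The member that rose was Hmga2, an architectural chromatin protein, from 1358 and 1189 CPM to 1985 and 2028 CPM (0.60 and 0.75).

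Mesenchymal structural genes split almost evenly, with 9 of 26 tested members higher, 8 lower and medians of 0.20 and 0.04. The fit of the 4 libraries alone called 3 higher and 2 lower. Vim, vimentin, was the clearest fall among the abundant genes, from 1461 and 1525 CPM to 395.6 and 408.9 CPM (log2 change -1.95 ± 0.11, adjusted p = 6.5e-06; -1.92 in the 11-library fit). Col6a1, a collagen VI chain, went from 7.83 and 16.4 CPM to 0.125 and 0.268 CPM, and the growth factor receptor Pdgfrb from 21.97 and 57.6 CPM to 11.3 and 17.6 CPM. Fibronectin, Fn1, fell by 0.60 (adjusted p = 0.041), from 2358 and 4100 CPM to 2009 and 2290 CPM, and by 0.94 in the 11-library fit.

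Matrix and adhesion genes were among the members that rose. Tnc, the matrix glycoprotein tenascin C (chr4:63959785-64047015), was at 60.1 and 61.8 CPM in shControl and 717 and 602 CPM in shMbd3. This was a log2 change of 3.36 ± 0.11 (adjusted p = 7.9e-07), and 3.40 in the 11-library fit. Itgb3, the integrin β3 chain, went from 1.28 and 1.73 CPM to 13.1 and 14.9 CPM, and Postn (periostin) from 0.0915 and 0.0479 CPM to 1.25 and 1.34 CPM. N-cadherin, Cdh2, was at 243 and 248 CPM in shControl and 308 and 315 CPM in shMbd3. Its change of 0.28 had an adjusted p of 0.05004 in the 12-library fit, just above the threshold, and 0.0115 in the 11-library fit (0.33).

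Among the genes chosen by size, some of which are also list members, the largest change was a fall. Plce1, phospholipase C epsilon (chr19:38481034-38785105), was at 116 and 125 CPM in shControl and 0.877 and 0.625 CPM in shMbd3, a log2 change of -6.65 ± 0.19 (adjusted p = 6.5e-07; -6.65 in the 11-library fit). Gpnmb, a transmembrane glycoprotein, went from 107 and 181 CPM to 2.59 and 4.24 CPM, and Il1rl1, the receptor of interleukin 33, from 119 and 116 CPM to 3.17 and 3.84 CPM. The planar polarity gene Prickle2 fell from 31.2 and 35.3 CPM to 0.376 and 0.535 CPM and the integrin chain Itga8 from 36.1 and 30.2 CPM to 0.543 and 0.803 CPM. For each of these both shMbd3 values lay far below both control values. The control replicates lay close together except for Gpnmb, whose change was -5.25 in the 12-library fit and -5.57 in the other.

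Several genes reached 0 reads in both shMbd3 libraries. Tafa5, a secreted protein, was at 11.03 and 15.4 CPM in shControl and Rassf4 at 12.7 and 13.1 CPM. Against a limit of 3 reads over the group, Tafa5 was at least 203-fold lower, Rassf4 at least 199.7-fold lower and Tspan11, a tetraspanin, at least 81.04-fold lower in shMbd3 (counting error only). The scavenger receptor Scara5 was at 17.4 and 19.4 CPM in shControl and at 0.125 and 0 CPM in shMbd3. The other large falls chosen by size were Antxr1, Olfm1, Gda, Ahrr, Col6a1, Ccn3 and Chst1, from 4.76 to 33.4 CPM in shControl.

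The largest rise was that of Ret, the receptor tyrosine kinase of the GDNF family ligands (chr6:118151748-118197744). It was at 2.24 and 1.82 CPM in shControl and 64.5 and 65.4 CPM in shMbd3, a log2 change of 4.64 ± 0.22 (adjusted p = 4.2e-06; 4.81 in the 11-library fit). Gpa33, a cell surface antigen of intestinal epithelium, went from 1.33 and 2.97 CPM to 31.8 and 50.5 CPM, B4galnt3, a glycosyltransferase, from 1.01 and 2.06 CPM to 28.7 and 30.0 CPM, and Npr3, the natriuretic peptide clearance receptor, from 1.10 and 0.527 CPM to 15.4 and 16.6 CPM. Iqgap2, a scaffold protein, and Pir, pirin, were below 1 CPM in both shControl libraries and at 6.97 to 12.8 CPM in shMbd3. The other large rises chosen by size were Gask1b, Sorbs2, Pgf, Brinp3 and Hsd11b2.

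Of 24 tested receptor tyrosine kinases 9 rose, Ret among them, and 2 fell, against 12.9% and 13.5% of all genes. The list medians were 0.51 and 0.20. Epha1 was at 2.15 and 2.92 CPM in shControl and 21.1 and 22.9 CPM in shMbd3 (log2 change 2.85 ± 0.13, adjusted p = 2.5e-06), and Egfr at 3.02 and 2.35 CPM and 13.6 and 10.9 CPM (1.94). The orphan receptor Ror1 fell from 6.54 and 5.99 CPM to 1.42 and 0.937 CPM. In the Notch list 5 of 12 members rose and 1 fell, with medians of 0.37 and 0.42. The 2 largest rises were of ligands: Dll4 was at 0 and 0.0958 CPM in shControl and 4.55 and 5.67 CPM in shMbd3, and Jag1 at 11.8 and 8.91 CPM and 37.2 and 30.5 CPM. The ligand Dll1 did not pass. Of the pathway's targets Hey1 fell, from 1.10 and 1.53 CPM to 0.626 and 0.446 CPM, Nrarp rose by 0.59 and Hes1 did not pass.

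Among integrins 3 of 17 rose and 5 fell, against 12.9% and 13.5% of all genes. Itgb6, the epithelial partner of αv, rose from 0.0915 and 0.240 CPM to 4.34 and 3.21 CPM, while Itgb8 fell from 6.41 and 6.42 CPM to 0.960 and 1.11 CPM. Of 29 extracellular proteases and inhibitors 8 rose and 10 fell. Gelatinase B, Mmp9 (chr2:164940326-164955850), was at 2.38 and 2.35 CPM in shControl and 28.6 and 22.98 CPM in shMbd3, a log2 change of 3.13 ± 0.16 (adjusted p = 5.7e-06; 3.19 in the 11-library fit). Stromelysin, Mmp3, moved the other way, from 118 and 79.2 CPM to 12.7 and 14.8 CPM, and the protease inhibitor Slpi from 3.62 and 6.04 CPM to 0.835 and 0.669 CPM. In both lists strong changes in opposite directions stood side by side, and the list medians were -0.01 and -0.02 in the 12-library fit and -0.15 and -0.28 in the 11-library fit.

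TGF-beta signalling had 10 of 42 members higher and 6 lower, against 12.9% and 13.5% of all genes, with medians of 0.14 and 0.00. Ccn2, a known target of the pathway, rose from 54.5 and 46.6 CPM to 191 and 152 CPM. Of the 6 that fell 3 are receptors: Tgfbr3, from 49.3 and 63.3 CPM to 16.2 and 18.9 CPM, Tgfbr1, from 252 and 220 CPM to 133 and 155 CPM, and Bmpr2, from 195 and 162 CPM to 112 and 130 CPM. The ligand chain Inhba rose from 8.24 and 9.73 CPM to 28.2 and 27.7 CPM.

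Genes of MHC class I presentation rose in 10 of 18 tested members and fell in none, with a median of 1.13 that was 0.56 in the 11-library fit. In the fit of the 4 libraries alone 0 of them passed, and 4 and 5 without each shMbd3 library. H2-D1, a class I heavy chain, was at 39.9 and 68.0 CPM in shControl and 142 and 153 CPM in shMbd3 (log2 change 1.43 ± 0.19, adjusted p = 6.7e-04; 1.11 in the 11-library fit). The transactivator Nlrc5 went from 0.641 and 1.01 CPM to 2.80 and 3.12 CPM and the immunoproteasome subunit Psmb8 from 0.183 and 0.767 CPM to 2.67 and 2.10 CPM. B2m, the light chain, was at 562 and 437 CPM in shControl and 380.4 and 379.6 CPM in shMbd3 and did not pass. The heavy chain genes are near-identical copies of each other and how reads were split between them is not given in the sources used here, so their single values are uncertain. Interferon-stimulated genes, by contrast, rose in 4 of 24 and fell in 4, near the shares of all genes (12.9% and 13.5%). Among them Ifih1 was up from 6.68 and 4.41 CPM to 12.7 and 15.1 CPM and Ifit2 down from 57.4 and 38.0 CPM to 17.9 and 18.0 CPM.

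Stress and growth-related lists moved partly, read against 12.9% higher and 13.5% lower among all genes. The integrated stress and unfolded protein response list had 9 of 27 members higher and 3 lower, with Atf3 from 0.915 and 1.29 CPM to 10.9 and 10.0 CPM, Ddit4 from 29.8 and 52.7 CPM to 167 and 199 CPM, and the amino acid transporter Slc7a5 down from 44.2 and 76.6 CPM to 23.3 and 25.2 CPM. Immediate early genes had 8 of 22 higher and 3 lower, the falls being Egr2, Fosl1 and Klf10. Of 26 p53 targets 6 rose and 3 fell, and Cdkn1a, the p21 cell cycle inhibitor, went from 90.3 and 110.1 CPM to 209 and 192 CPM (log2 change 0.94 ± 0.12, adjusted p = 7.1e-04). Proliferation genes, 4 of 35 higher and 3 lower, were near the shares of all genes, with Mybl2 up and Ccnb1 down.

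Among chromatin genes the NuRD list changed by less than 1 log2 unit wherever a member passed in both fits. Of 15 NuRD subunits 4 rose and 1 fell: Chd4, the remodeller, from 377 and 462 CPM to 557 and 569 CPM, the MTA scaffolds Mta1, Mta2 and Mta3 by 0.63, 0.42 and 0.68 log2 units (0.36, 0.39 and 0.47 in the 11-library fit), and Cdk2ap1, which fell by 0.38. With each library's GC trend removed 1 member of the list passed as higher, and 0 did so without either shMbd3 library or in the fit of the 4 libraries alone. Mbd2 was at 152 and 139.9 CPM in shControl and 152 and 143 CPM in shMbd3, Hdac1 at 72.8 and 81.8 CPM and 83.9 and 84.5 CPM, and neither passed in either fit. Hdac2, at 438 and 254 CPM against 324 and 288 CPM, did not pass either. Of the DNA methylation list, 3 of 14 rose, Dnmt3a, Tet3 and Tdg, and 3 fell, Zbtb33 and Mbd5 among them. Polycomb proteins, 3 of 19 higher and 2 lower, were near the shares of all genes (12.9% and 13.5%). The falls were Rnf2, from 188 and 153 CPM to 67.9 and 67.8 CPM, and Bmi1, from 213 and 185 CPM to 108 and 116 CPM. Tet2 was at 15.2 and 13.9 CPM in shControl and 10.9 and 12.4 CPM in shMbd3 and did not pass.

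Of 11 tested imprinted genes 4 fell and 0 rose, against 13.5% and 12.9% of all genes. Mest, a paternally expressed gene, was at 61.1 and 62.9 CPM in shControl and 23 and 26.0 CPM in shMbd3 (log2 change -1.39 ± 0.14, adjusted p = 1.5e-04; -1.35 in the 11-library fit), and Impact, Kcnq1ot1 and Airn fell by 1.08, 0.70 and 1.04. Pluripotency factors were mostly untested, and of 8 tested 1 rose and 2 fell: Klf2 rose from 1.65 and 2.40 CPM to 6.22 and 6.02 CPM, and Klf4 fell from 33.4 and 28.5 CPM to 7.47 and 8.61 CPM and Sox2 from 4.58 and 3.26 CPM to 0.125 and 0.134 CPM. Lists whose counts were nearer the shares of all genes included cholesterol and fatty acid synthesis (6 of 31 higher, 2 lower), Wnt (4 and 2 of 23) and glycolysis and hypoxia (7 and 4 of 33). In the last of these the hypoxia targets Bnip3 and Pdk1 fell by 1.42 and 0.86, while Adm and P4ha2 rose by 1.67 and 1.36. Ribosomal protein genes had 4 of 46 higher, and their median of 0.49 was 0.09 without the library labelled shControl replicate 1.

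**Figure D4:**
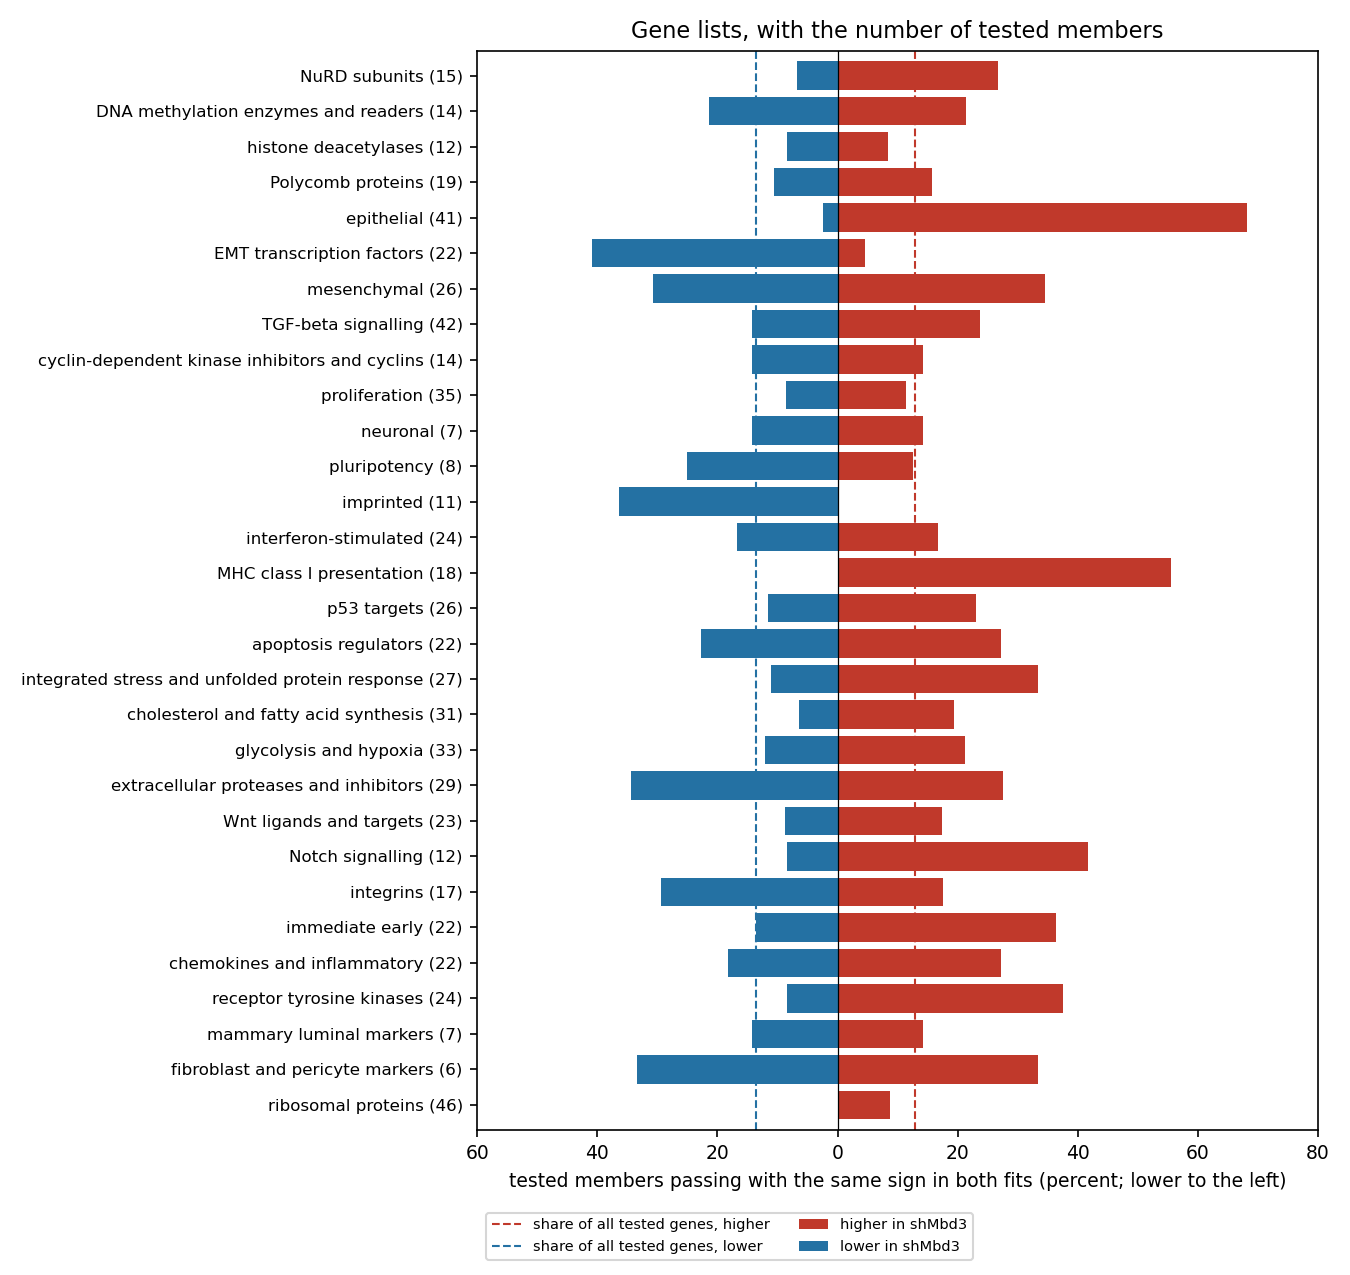
For each gene list with at least 5 tested members (number in brackets), the percent of them that rose (right, red) or fell (left, blue) in both fits, with dashed lines at 12.9% and 13.5%, the shares over all tested genes. The epithelial list reaches 28 of 41 on the right, MHC class I 10 of 18, and the transition factors 9 of 22 on the left.

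Defining markers of blood, endothelial and fat cells were at or near 0. Summed over the list, haematopoietic markers were at 1.92 and 3.12 CPM in shControl and 2.17 and 3.21 CPM in shMbd3, with Adgre1 and Cd3e at 0 in all 4 libraries, and endothelial markers at 0.915 to 1.44 CPM, with Kdr and Tie1 at 0. Adipocyte markers summed to 2.70 to 9.10 CPM, with Plin1 and Lep at 0. Basal and myoepithelial markers summed to 13.1 and 16.6 CPM in shControl and 24.6 and 19.14 CPM in shMbd3. In that list Krt14 was higher (1.01 and 3.79 CPM against 22.8 and 17.0 CPM), Mylk was lower (9.79 and 10.5 CPM against 0.543 and 0.892 CPM), and Krt5 was at 0. Fibroblast and pericyte markers summed to 148 and 345 CPM in shControl and 396 and 431 CPM in shMbd3, and 2 of 6 tested rose and 2 fell. Most of that sum was Gsn, gelsolin, at 96.1 and 254 CPM against 361 and 390 CPM. In such bulk libraries a change in the share of cells of one state and a change of RNA per cell cannot be told apart.

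Some calls rested on the library labelled shControl replicate 1. Ap5b1 was at 0.412 and 4.504 CPM in shControl and 6.05 and 8.39 CPM in shMbd3, and its change of 1.80 (adjusted p = 0.046) was 0.61 without that library (adjusted p = 0.067). The changes of the transcription factors Junb and Foxp4 went from 1.75 to 0.65 and from 1.53 to 0.50 in the same way. Slc25a10 and Abhd17a did likewise. In each of these 5 the library labelled shControl replicate 1 held the lower of the 2 control values, and both shMbd3 values lay above both. They were chosen by size and do not stand for all such calls. Of the 743 genes that passed only with that library, 308 were higher and 435 lower in shMbd3.

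The same knockdown was measured in separate libraries of cells given CI994. There Mbd3 was lower in both shMbd3 libraries than in both controls, with a log2 change of -1.67 (adjusted p = 0.197) in the 12-library fit, whose spread for this gene includes the low control library, and -1.67 (adjusted p = 9.9e-06) in the 11-library fit. With CI994, 1038 genes passed as higher (8.1%) and 1408 as lower (11%). Of the 1652 genes that rose without the drug, 681 (41.2%) passed as higher with it and 0 as lower. Of the 1727 that fell, 942 (54.5%) passed as lower and 1 as higher. Read from the other side, 65.6% of the higher and 66.9% of the lower genes with CI994 were in these lists. In the 11-library fit, where 2740 (21.4%) and 2905 (22.7%) genes passed with CI994, the shares were 78.8% and 76.3% of the untreated lists and 47.5% and 45.3% of the CI994 lists, and 11 risen genes passed as lower and 7 fallen genes as higher. Of the changes beyond 2 log2 units, 67 of 67 rises and 134 of 137 falls passed in the same direction with CI994. Both comparisons take the spread of each gene from the same fit. A gene that passed untreated therefore passes more readily with CI994, and these shares are not independent. By sign alone, 96.2% of the risen and 95.3% of the fallen genes moved the same way with CI994.

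With CI994 Cdh1 was at 34.7 and 36.6 CPM in shControl and 212 and 201 CPM in shMbd3 (log2 change 2.48, adjusted p = 1.6e-05). Plce1 was at 80.5 and 88.8 CPM and 0.799 and 0.684 CPM (-6.12, adjusted p = 6.9e-07). Of the epithelial list 29 of 41 passed as higher and 1 as lower with CI994, and 34 and 5 in the 11-library fit. Not every list repeated its untreated counts. In the 12-library fit, 4 of 22 transition factors passed as higher and 5 as lower with CI994. For the stress response list it was 3 and 3 of 27, for glycolysis and hypoxia 1 and 7 of 33, and for cholesterol 0 and 5 of 31. MHC class I had 4 and 0 of 18 (13 and 0 in the 11-library fit), receptor tyrosine kinases 7 and 1 of 24, and mesenchymal genes 9 and 8 of 26. Where the 2 settings differed by a test of the difference, 10 genes passed (0.0781% of those tested), 5 in each direction (0.039% each), and their values are given in the closing section.

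**Figure D5:**
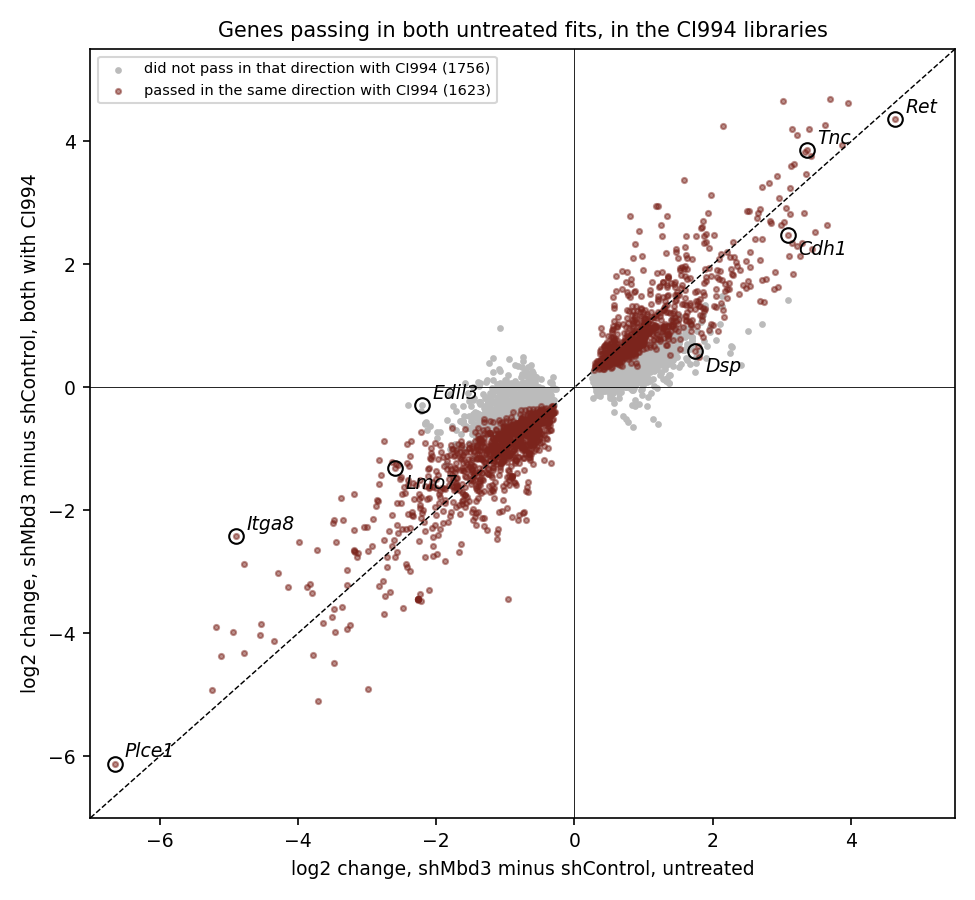
Each point is 1 of the 3379 genes that passed in both untreated fits, with its log2 change without CI994 on the x axis and with CI994, from other libraries, on the y axis. Dark points (1623) passed in the same direction with CI994, and most points lie on the same side of 0 on both axes; Itga8, Edil3, Lmo7 and Dsp lie nearer 0 on the y axis.

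Knockdown of Tet2 in the same clone shares the shControl libraries, so the direct comparison of shMbd3 with shTet2, which does not use them as a group, was made to see where the 2 knockdowns differ. In it 1233 genes passed as higher in shMbd3 (9.63%) and 1220 as lower (9.53%). Without the library labelled shControl replicate 1 it was 2871 and 2916, without replicate 2 it was 2872 and 2916, and without shMbd3 replicate 1 or 2 it was 525 and 519 or 562 and 532. In the fit of all libraries most epithelial genes did not pass: of 41 members 3 were higher and 3 lower, with a median difference of -0.13. This did not hold in the fit without shControl replicate 1, given below. The pooled spread of the fit of all libraries includes both shControl libraries. A gene that did not pass in it is therefore not shown to be equal in the 2 knockdowns. The p-values that follow are from that fit. Cdh1 was at 202 and 207 CPM in shTet2 against 170 and 202 CPM in shMbd3 (difference -0.23, adjusted p = 0.35), Vim at 322 and 351 CPM against 396 and 409 CPM (0.17, adjusted p = 0.32), and Plce1 at 0.803 and 1.34 CPM against 0.877 and 0.625 CPM (-0.38, adjusted p = 0.22). In the fit without shControl replicate 1, 10 epithelial members were higher and 14 lower. Further genes with large changes in shMbd3 were also far from shControl in shTet2. Tafa5 was at 0 CPM in both shTet2 libraries, Itga8 at 1.56 and 1.89 CPM and Dsp at 211 and 213 CPM.

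Other genes differed more between shMbd3 and shTet2 than Cdh1, Vim and Plce1 did. Pir was at 0.0945 and 0.0498 CPM in shTet2 and 12.8 and 11.96 CPM in shMbd3, a difference of 4.45 (adjusted p = 4.0e-06). Gpa33 was at 1.23 and 1.54 CPM in shTet2 (difference 4.36), Brinp3 at 2.03 and 4.08 CPM (3.90), Mmp9 at 1.42 and 1.64 CPM (3.61), Iqgap2 at 0.0472 and 0.249 CPM (3.53) and Itgb3 at 1.09 and 1.99 CPM (2.79), and all of these passed. Ret was at 16.2 and 13.4 CPM in shTet2, between shControl and shMbd3, and differed by 2.01 (adjusted p = 4.2e-04). Lower in shMbd3 than in shTet2 were Prickle2 (7.70 and 9.61 CPM in shTet2, difference -3.33), Vldlr (13.4 and 13.2 CPM against 1.21 and 0.803 CPM, -3.28), Gpnmb (20.1 and 22.1 CPM, -2.58), Bnip3 (111 and 99.96 CPM, -2.60) and Mest (58.1 and 69.7 CPM, -1.45). For Mest the shTet2 values were near those of shControl.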

How the data were processed

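Total RNA was sequenced (a stranded TruSeq kit, per the labels' protocols). The submitters' processing notes name STAR and mm10; the counting step is not given in the sources used here. The authors deposited CPM per gene for the 12 M3 shRNA libraries, each summing to 1000000. Every value was a whole multiple of the smallest positive one (100% of values, within 0.01 reads), so whole reads were recovered, 16086082 to 24977595 a library. A count of 0 allows up to 3 reads; such limits cover counting error only. The 8 libraries without shRNA are on another scale and not used here, and 0 columns were left unmapped. Entrez identifiers matched RefSeq symbols for 99.7% of genes.

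Genes with at least 0.5 CPM in 2 or more libraries (12808) were tested with limma 3.58.1 (mean trend, robust, R 4.3.3) on log2(CPM / TMM factor + 0.5), with all 12 libraries in 1 fit so that groups of 2 share a spread, Benjamini-Hochberg adjusted over all tested genes to 0.05, and again without shControl replicate 1. P-values rest on a spread pooled over all groups of the fit, including shTet2 and CI994 libraries, and not on the compared samples alone. All libraries come from 1 clone, so the p-values do not measure variation between clones. On data simulated for shMbd3 against shControl the test found 82% of genes changed 2-fold and 100% of those changed 4-fold, with 5 false calls among 12710 genes. The simulated libraries had the same dispersion for every gene and no departure along GC content. These rates therefore do not cover a control pair that differs as the real one does. Alternatives were edgeR 4.0.16 and DESeq2 1.42.0 on the recovered reads, RLE, library size only, no filter, pseudocounts of 0.1 and 1, the replicate block, removal of each library's trend along transcript GC content (available for 95.6% of tested genes), only the groups compared, and leaving out each library, where the lone sample is assumed to vary like the other groups.

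The members, gene lists and tests were chosen with earlier results of these data known. Named genes were 28 fixed ones, the 15 largest rises and 15 largest falls by the smaller change of the 2 fits (both passing, no overlap, at least 5 CPM in the higher group), up to 3 of each direction per list (at least 1 CPM, else the smallest p), and 6 genes whose call rested on shControl replicate 1. Some genes these rules name are not reported here. The comparison with shTet2 and these genes were chosen after their values were seen: Cldn3, Cldn4, Cldn7, Lsr, Marveld2, Dsp, Grhl2, St14, Krt8, Krt18, B2m, Kcnq1ot1, Tspan11, Nrarp, Dll1 and Hes1. Promoter sequences are from RefSeq (GRCm38.p6), matched by gene identifier for 10087 of the 12808 tested genes.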

Additional observations from a re-analysis of the deposited data

Results flagged for a closer look

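The knockdown effect differed between untreated cells and cells given CI994, by a test of the difference in the 12-library limma fit, for 10 of 12808 genes. Values are the log2 effect without the drug minus that with it. In the edgeR fit 0 genes passed (1498 at an unadjusted p under 0.05) and in DESeq2 115, and in the limma fit 93 passed without shControl replicate 1, 6315 without replicate 2 and 0 without any 1 of the other 6 libraries compared.

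For 4 genes the fall in shMbd3 was larger without the drug on the scale of log2(CPM + 0.5). Itga8, an integrin chain, was at 36.1 and 30.2 CPM in shControl and 0.543 and 0.803 CPM in shMbd3. With CI994 it was at 2.48 and 2.67 CPM and 0.0841 and 0.0622 CPM (difference -2.47, adjusted p = 0.029). Its shMbd3 values with CI994 lie below the added 0.5 CPM, so the effect there is compressed and the difference depends on that scale. Edil3, a matrix protein, was at 46.2 and 39.8 CPM against 8.64 and 9.99 CPM without the drug, and at 16.6 and 19.7 CPM against 15.7 and 14.6 CPM with it (-1.93, adjusted p = 0.035). Tafa5 had no read in any shMbd3 library, so its difference of -1.91 follows its shControl level, 11.03 and 15.4 CPM without and 2.84 and 3.57 CPM with CI994. Lmo7, a junction-associated protein, was at 83.0 and 78.6 CPM against 13.8 and 13.2 CPM without, and 153 and 173 CPM against 71.0 and 63.3 CPM with the drug (-1.29).

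Cyfip2, a regulator of actin, was at 12.4 and 14.6 CPM against 11.8 and 11.9 CPM without CI994 and 20.3 and 19.8 CPM against 45.3 and 44.9 CPM with it (-1.36). Dsp rose more without the drug than with it, where it was at 192.1 and 192.2 CPM against 305 and 287 CPM (1.16). Cdh17, a cadherin, was at 12.2 and 11.8 CPM against 7.01 and 8.03 CPM without, and 28.4 and 28.7 CPM against 6.48 and 5.84 CPM with CI994 (1.46).

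The last 3 were near 0 without the drug. Scn3a, a sodium channel, was at 2.68 and 2.56 CPM in shControl with CI994 against 0.126 and 0.0622 CPM in shMbd3 (2.10). Ces1f, a carboxylesterase, was at 2.36 and 1.91 CPM against no read (2.20), and U90926 at 11.9 and 11.4 CPM against 0.631 and 0.622 CPM (2.48).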

How the results depend on the processing

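RLE, library size only, no filter, both pseudocounts, the replicate block, GC removal, edgeR (3970) and DESeq2 (4601) kept the count of passing genes within 1.5 times of 4122. It was 6359 with the GC trend removed with the replicate block and 304 with only the groups compared (2664 at an unadjusted p under 0.05), and 1590 to 8733 with 1 library left out. The count passing also without shControl replicate 1 (3379) was 5375 and 304 under the same alternatives, and 1553 to 1750 without a shMbd3 library. Members of any gene list passing (285) were 49 with only the groups compared and 154 to 486 with 1 library left out. With CI994 the 2446 genes were 4440 with the GC trend removed, 5457 with the block added, 4793 with only the groups compared, and 1267 to 5646 with 1 library left out, the top 2 values without either untreated shControl library. The 10 genes of the difference between settings were 5 by library size only, 36 without the filter, 0 and 41 with pseudocounts of 0.1 and 1, 31 with the replicate block, 114 with the GC trend removed, 570 with the block added, 0 with only the groups compared, 0 by edgeR and 115 by DESeq2 (the 0s had 1515, 1027 and 1498 genes at an unadjusted p under 0.05). With 1 library left out they ran from 0, without any 1 shMbd3 or CI994 library of the comparison, to 93 and 6315 without shControl replicate 1 and 2. The cause was not tested.

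Signs turned for 11 named genes, none of which passed in the 12-library fit. Mbd3 was -0.50 with the GC trend removed, alone and with the block, -0.54 by edgeR and by DESeq2, and -1.41 to 1.98 with 1 library left out. With the GC trend removed, alone and with the block, Hdac2 was 0.20, Hdac8 0.30, Rbbp7 0.0291, Zeb2 0.22, Snai1 -0.17, Krt8 -0.33, Krt18 -0.0253 and Scn3a 0.0774. By library size only Mbd2 was 0.0111, Hdac8 0.0342 and Gatad2a 0.0341. With 1 library left out Mbd2 ran from -0.17 to 0.0709, Hdac2 from -0.64 to 0.26, Hdac8 from -0.14 to 0.0884, Gatad2a from -0.52 to 0.46, Rbbp7 from -0.56 to 0.14, Zeb2 from -0.49 to 0.00837, Snai1 from -0.12 to 1.13, Krt8 from -0.57 to 0.97 and Krt18 from -0.11 to 1.01.

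Same-numbered samples of shControl and shMbd3 deviated together (correlation 0.32), as in all 15 pairs of groups (0.0957 to 0.524). The labels name 2 independent experiments but do not tie the numbers to them, so the samples were not treated as paired. The replicate block gave 5278 passing genes and turned no sign. Of the 212 named genes, 54 and 49 no longer passed without shMbd3 replicate 1 or 2, and 120 with only the groups compared.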

Other observations

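Secreted signals outside the groups above moved in both directions. Of 22 tested chemokine and inflammatory genes 6 rose and 4 fell in both fits, against 12.9% and 13.5% of all genes. Cxcl16, a membrane-bound chemokine, was at 4.21 and 5.65 CPM in shControl and 50.1 and 45.3 CPM in shMbd3, and the cytokine Il1a at 0.275 and 0.144 CPM and 1.54 and 1.83 CPM. The monocyte chemoattractant Ccl2 was lower, at 19.3 and 13.3 CPM against 2.75 and 2.77 CPM, and so was Tslp, at 9.88 and 6.33 CPM against 2.42 and 2.41 CPM. Among Wnt ligands, Wnt7a was at 18.2 and 24.9 CPM in shControl and 103 and 90.3 CPM in shMbd3. Of 22 apoptosis regulators 6 rose and 5 fell, with Bak1 from 28.6 and 53.4 CPM to 119.5 and 133 CPM and Bcl2 from 149 and 113 CPM to 76.6 and 77.4 CPM. Of the 7 tested mammary luminal markers, the factor Foxa1 rose (2.24 and 1.87 CPM to 6.59 and 6.202 CPM) and the oestrogen receptor Esr1 fell (30.7 and 21.3 CPM to 8.93 and 8.92 CPM).

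The median change differed between chromosomes, and 5 were chosen for mention after their values were seen. In the 11-library fit it was -0.19 over 485 genes of chromosome 13, -0.18 over 758 genes of chromosome 1 and -0.17 over 514 genes of chromosome 15, and 0.12 over 649 genes of chromosome 17 and 0.11 over 1057 genes of chromosome 11. In the 12-library fit the same 5 were -0.32, -0.28, -0.019, 0.29 and 0.21, with chromosome 15 the least changed of them there. In the CI994 libraries the same chromosomes gave -0.24, -0.21, -0.22, 0.12 and 0.08. With the GC trend removed the untreated medians were -0.19, -0.17, -0.15, 0.13 and 0.09. Against shTet2 chromosomes 13 and 15 gave -0.13 and -0.18, chromosome 1 gave 0.13, chromosome 11 gave 0.32 and chromosome 17 gave 0.00. No test was made of these medians.

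Genes that changed most in either direction had few CG pairs before their start, those that fell fewer than those that rose. The shares of genes passing also differed along transcript GC content, as given above, and the link was not tested. In the 250 bases before the start the median number of CG pairs was 6 for the 95 genes with an entry that fell by more than 2 log2 units in both fits and 10 for the 43 that rose by as much, against 16 over all 10087 tested genes with an entry.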
